A study of Caenorhabditis elegans with 4 samples.

Results

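The 8 genes described here, ugt-9, ugt-10, ugt-8, ugt-14 and ugt-13 with ugt-40, ugt-41 and ugt-36, encode UDP-glucuronosyltransferases (UGTs) and lie in 2 clusters on chromosome V. They are 8 of the 65 genes named ugt in the deposited table, which lists 46766 genes. The members were chosen from this same comparison. They are the genes named ugt in these 2 clusters whose counts were at least 2-fold higher in worms treated with Gengnianchun (GNC) than in control worms. Their counts, levels and fold changes are therefore given as a description, with no test.

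The RNA came from whole animals of N2, the wild-type laboratory strain of Caenorhabditis elegans, at 22 days of age. Synchronized worms received GNC, a mixture of water extracts of crude herbs, at 3.94 mg/mL, or water as the vehicle control (0 mg/mL), and both groups were fed E. coli OP50. The sample labels and the methods give S-complete liquid medium as the culture, whereas the short design text of the series names NGM. There were 2 libraries in each group, nothing states that they came from separate cultures, and the p-values below measure only the spread between these libraries.

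UGTs transfer a sugar from a UDP-sugar donor to small, often fat-soluble molecules, which makes them more soluble in water and easier to excrete. This conjugation is the second step of detoxification, and it often follows oxidation by cytochrome P450 enzymes, which is the first step. UGT genes of nematodes form a large family with many neighbouring copies, and groups of them are known to respond to drugs and plant compounds. The substrates of the single enzymes described here are not given in the sources used, and no base or protein sequence of them was analysed here.

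The first cluster holds 5 members within 15.4 kb, from position 4896048 to 4911458 on build WBcel235, and the second holds 3 members within 29.7 kb, from 7139483 to 7169205. The clusters lie 2.23 Mb apart. In the first, ugt-9 (WBGene00020587, 4896048 to 4897962) lies on the plus strand and ugt-10 (WBGene00020594, 4898217 to 4900082) on the minus strand. They are followed by ugt-8 (WBGene00019234, 4903974 to 4905917), ugt-14 (WBGene00019233, 4906283 to 4908302) and ugt-13 (WBGene00019232, 4908871 to 4911458), all on the plus strand. Only 365 bases separate ugt-8 from ugt-14, and 568 bases separate ugt-14 from ugt-13. In the second cluster, ugt-40 (WBGene00017331, 7139483 to 7141964) and ugt-41 (WBGene00017336, 7161068 to 7163595) lie on the minus strand and ugt-36 (WBGene00017315, 7167009 to 7169205) on the plus strand. The positions are those of the deposited table, and only that of ugt-41 is identical in the annotation used here, so the ends of the others differ between annotations.

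All 8 are annotated as protein coding, and the members of a cluster resemble each other in gene structure. The coding part spans 1593 to 1608 bases in 5 members of the first cluster and 1578 to 1599 bases in 3 members of the second. The transcript with the longest coding part has 6 exons in ugt-8, ugt-9, ugt-10 and ugt-14 and 8 exons in ugt-13, against 10 exons in ugt-40 and ugt-41 and 9 exons in ugt-36. As members of a family of similar genes, they could share reads, and how the counting assigned such reads is not given in the sources used here.

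The 4 libraries held 18639631 to 21753657 counts, and 16341 genes passed the filter on low counts and were tested with edgeR's quasi-likelihood test. A gene was called at a false discovery rate (FDR) under 0.05 by Benjamini-Hochberg adjustment and a change of at least 2-fold, the thresholds of the study's methods. By this rule 812 genes (4.97%) were called higher and 364 genes (2.23%) lower with GNC. Scaling by library totals instead of edgeR's TMM factors gave 1091 higher and 280 lower, and moved the median over all tested genes from 0.02 to 0.12 on the log2 scale. All 8 members passed the filter, and each was at or above the filter's minimum of 0.497 CPM (a count scaled to a fixed library size) in both control libraries as well as in both GNC libraries. The values below are normalized counts, in CPM with TMM factors, unless FPKM is named.

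The member with the highest count was ugt-41, at 341 and 376 counts in the control libraries and 3893 and 3559 counts in the GNC libraries. After normalization this was 19.2 ± 0.611 CPM under water and 172 ± 1.36 CPM under GNC (SD, n = 2 each). The control libraries lay close together, as did the GNC libraries, and the groups did not overlap. Since whole worms were sequenced, a difference in the number of cells of a type and one in RNA per cell cannot be told apart. Its log2 fold change was 3.16 (standard error 0.06), the largest of the 8, and in the rank of all 16341 tested genes by fold change it stood 9th.

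The other members of the second cluster started from much lower levels. The gene ugt-40 had 15 and 21 counts in control and 193 and 165 counts with GNC. Its normalized count was 0.961 ± 0.192 CPM under water and 8.24 ± 0.456 CPM under GNC (SD, n = 2 each), a log2 fold change of 3.09 (standard error 0.22). Both control libraries were far below both GNC libraries, although few control counts stand behind the ratio. The gene ugt-36 had 53 and 54 counts in control and 424 and 345 counts with GNC. Its normalized count was 2.87 ± 0.0689 CPM under water and 17.7 ± 1.60 CPM under GNC (SD, n = 2 each), a log2 fold change of 2.62 (standard error 0.15). Its control libraries were nearly equal and its GNC libraries differed by 0.18 on the log2 scale, the widest gap among the GNC values of the 8 genes.

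In the first cluster, the 3 adjacent members on the plus strand differed most. The gene ugt-8 had 39 and 62 counts in control and 447 and 450 counts with GNC. That was 2.69 ± 0.771 CPM under water and 20.7 ± 1.25 CPM under GNC (SD, n = 2 each), a log2 fold change of 2.94 (standard error 0.17). Control replicate 1 was lower than control replicate 2 by 0.59 on the log2 scale, the widest gap between replicates in the set, and the lowest GNC library was still 6.13 times the highest control library. The gene ugt-14 had 40 and 53 counts in control and 362 and 329 counts with GNC. It averaged 2.48 ± 0.400 CPM under water and 15.9 ± 0.192 CPM under GNC (SD, n = 2 each), a log2 fold change of 2.68 (standard error 0.15). The gene ugt-13 was already higher in control worms, with 256 and 304 counts, and had 1108 and 937 counts with GNC. Its normalized count was 14.98 ± 1.26 CPM under water and 47.1 ± 2.97 CPM under GNC (SD, n = 2 each), a log2 fold change of 1.65 (standard error 0.09). All 3 genes showed no overlap between groups, with a smaller ratio in ugt-13 than in its neighbours.

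The remaining members, ugt-9 and ugt-10, stood just inside the 2-fold threshold. The gene ugt-9 had 120 and 140 counts in control and 347 and 296 counts with GNC. Its normalized count was 6.96 ± 0.499 CPM under water and 14.8 ± 0.842 CPM under GNC (SD, n = 2 each), a log2 fold change of 1.09 (standard error 0.13). The gene ugt-10 was the least abundant, with 14 and 10 counts in control and 32 and 30 counts with GNC. That was 0.646 ± 0.176 CPM under water and 1.43 ± 0.0141 CPM under GNC (SD, n = 2 each), a log2 fold change of 1.14 (standard error 0.35). The groups did not overlap in either gene. Without control replicate 2 the log2 fold change of ugt-10 was 0.88, below the 2-fold threshold, and without control replicate 1 it was 1.45. The UGT gene just outside the threshold in or beside these clusters was ugt-12, with a log2 fold change of 0.65.

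**Figure D1:**
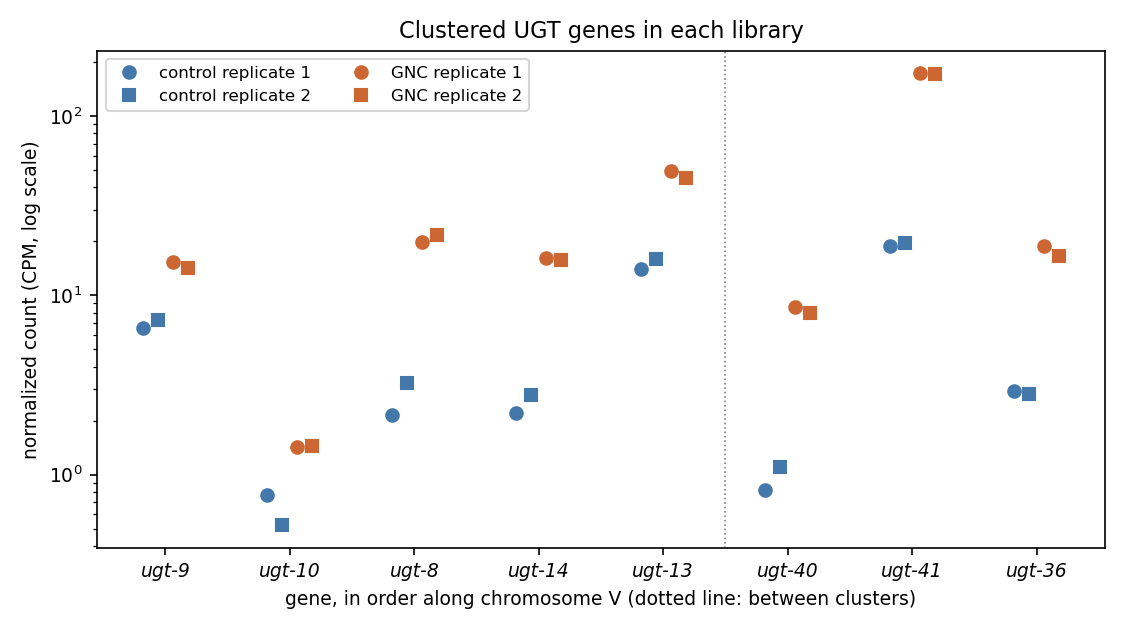
Normalized count (CPM, log scale) of each of the 8 clustered UGT genes in each library, in their order along chromosome V. Blue marks are the control libraries and orange marks the GNC libraries, circles replicate 1 and squares replicate 2. In every gene both orange marks lie above both blue marks, from ugt-10 at 0.522 to 1.44 CPM up to ugt-41 at 18.8 to 173 CPM.

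Over all 8 members the median log2 fold change was 2.65, with a range from 1.09 to 3.16, beside a median of 0.02 over all genes tested. All 8 were called higher, where 4.97% of all tested genes were, and the lowest GNC library exceeded the highest control library in all 8, where that held for 36.5% of all tested genes. Since the members were selected on this difference, nothing is read from these counts. The median was 1.65 in the first cluster and 3.09 in the second. Replicates of a member differed by 0.05 to 0.59 on the log2 scale in control worms and by 0.02 to 0.18 with GNC.

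Levels were compared between genes by FPKM, which is scaled to gene length and was deposited by the authors. In control worms ugt-41 was highest at 10.3 ± 0.167 FPKM (SD, n = 2), followed by ugt-13 at 8.52 ± 0.584 FPKM (SD, n = 2) and ugt-9 at 3.69 ± 0.207 FPKM (SD, n = 2). Next came ugt-36, ugt-8 and ugt-14 at means of 1.73, 1.53 and 1.46 FPKM, and the libraries of neighbours in this order overlapped. The lowest were ugt-40 at 0.537 ± 0.0988 FPKM (SD, n = 2) and ugt-10 at 0.388 ± 0.111 FPKM (SD, n = 2), whose nearest libraries were almost equal, at 0.467 FPKM for ugt-40 and 0.466 FPKM for ugt-10.

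With GNC the order changed below the first places. The level of ugt-41 was 99.2 ± 0.882 FPKM (SD, n = 2) and that of ugt-13 was 28.8 ± 1.84 FPKM (SD, n = 2). Behind them ugt-8 at 12.7 ± 0.752 FPKM (SD, n = 2) and ugt-36 at 11.4 ± 1.04 FPKM (SD, n = 2) overlapped. The means of ugt-14, ugt-9, ugt-40 and ugt-10 were 10.1, 8.43, 4.96 and 0.919 FPKM, with no overlap between neighbours in this order. The gene ugt-9 had thus moved from the 3rd to the 6th place among the members. The highest and the lowest member differed 26.6-fold in control worms and 108-fold with GNC.

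Within the whole family of 65 UGT genes, ugt-41 moved from the 17th place by FPKM in control worms to the 1st place with GNC, and ugt-13 moved from the 22nd to the 5th. The gene ugt-8 moved from the 46th to the 19th place, ugt-36 from the 44th to the 22nd, ugt-14 from the 47th to the 27th and ugt-40 from the 60th to the 39th. The places of ugt-9 (35th and 31st) and ugt-10 (61st and 58th) moved little. In GNC-treated worms ugt-41 therefore stood above ugt-12, a UGT gene beside the first cluster that had the highest mean in control worms (31.6 FPKM, with ugt-49 close behind at 31.0 FPKM).

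**Figure D2:**
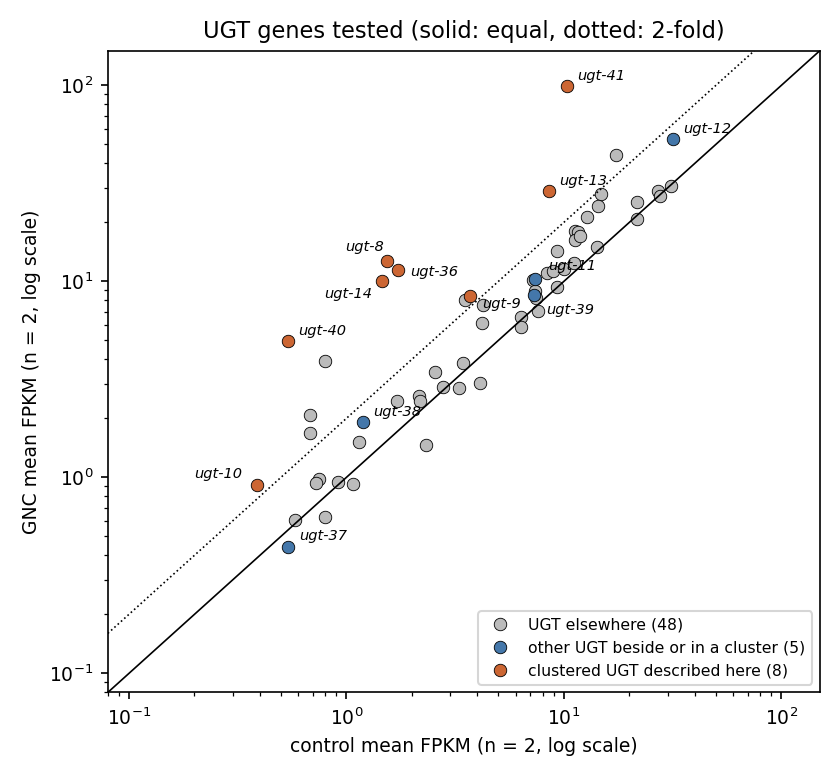
Mean FPKM of the 61 tested UGT genes in GNC-treated worms (n = 2) against control worms (n = 2), both on log scales, with the members in orange, the 5 other UGT genes in or beside the clusters in blue and the 48 UGT genes elsewhere in grey. The solid line marks equal levels and the dotted line a 2-fold higher level with GNC. The point of ugt-41, at 10.3 and 99.2 FPKM, is the highest, and ugt-9 and ugt-10 lie near the dotted line.

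The members made up a small part of the family's counts in control worms and a larger part with GNC. Their counts were 5.61% of all UGT counts in control replicate 1 (95% Wilson interval 5.26% to 5.98%) and 5.83% in control replicate 2 (5.49% to 6.19%). With GNC they were 22.5% in replicate 1 (22.0% to 22.96%) and 22.4% in replicate 2 (21.9% to 22.9%). These intervals cover counting error within a library only, and the difference between groups follows from how the members were chosen.

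In sums of normalized counts, the 8 members together came to 50.8 ± 3.49 CPM under water and 298 ± 6.15 CPM under GNC (SD, n = 2 each). The sum over all UGT genes was 887 ± 36.4 CPM under water and 1327 ± 23.6 CPM under GNC (SD, n = 2 each). The members thus carried 56.2% of the family's net difference, and the 57 other genes, with 837 and 1029 CPM, carried 43.8%. Since the members were chosen for being higher with GNC, nothing is read from this division. The members of the first cluster summed to 25.8 and 29.7 CPM under water, against 102 and 98.0 CPM under GNC. Those of the second summed to 22.5 and 23.5 CPM under water, against 200.2 and 195 CPM under GNC. The ratio of the second sum to the first was 0.872 and 0.793 in control and 1.96 and 1.99 with GNC. These sums hold the chosen members only and are not totals of the clusters. They leave out ugt-39, which lies within the second cluster at means of 22.3 CPM in control and 24.4 CPM with GNC. The gene ugt-41 alone made up 36.9% to 38.8% of the members' sum in the control libraries and 57.2% to 58.2% in the GNC libraries.

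**Figure D3:**
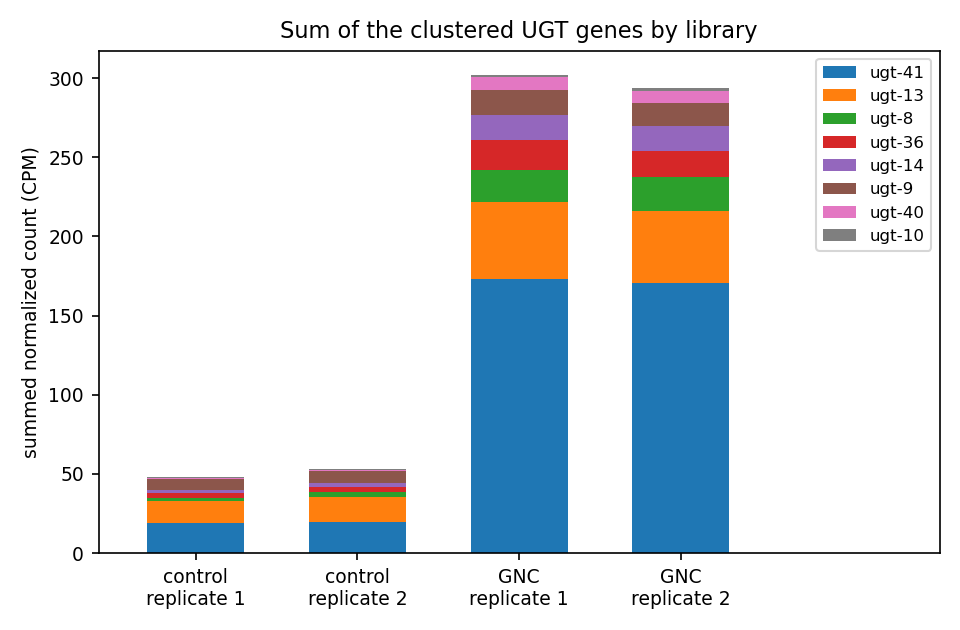
Summed normalized counts (CPM) of the 8 members in each library, stacked by gene. The bars reach 48.3 and 53.2 CPM under water, against 302 and 293 CPM under GNC, and ugt-41, at the bottom of each bar, takes the largest part.

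The other UGT genes in the clusters or within 20 kb of them are those that the choice of members left out, so their smaller changes follow from it. In the first cluster's surroundings, ugt-12 had 976 and 1071 counts in control and 1951 and 1786 counts with GNC. It passed the FDR threshold at 0.65 ± 0.06 on the log2 scale (standard error, adjusted p = 6.95e-05, edgeR's quasi-likelihood test) but not the fold threshold. The gene ugt-11, which lies 976 bases before ugt-9, had 232 and 274 counts in control and 402 and 360 counts with GNC. The log2 difference was 0.38 ± 0.11 (standard error, adjusted p = 0.0202, same edgeR test). Both genes rose by this test and lie on the minus strand beside the members, but ugt-11 did not pass with DESeq2 (adjusted p = 0.0956), with no filter, without control replicate 1 (adjusted p = 0.0795, edgeR) or without GNC replicate 1 (adjusted p = 0.0771, edgeR). A further gene between ugt-10 and ugt-8, WBGene00019235, is named ugt-67 in the annotation used here and H23N18.4 in the deposited table. It had 4 and 0 counts in control and 4 and 7 counts with GNC, and was not tested.

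In the second cluster 3 UGT genes lie between the members. The gene ugt-37 lies on the same strand as ugt-40 and overlaps by 23 bases the end at which transcription of ugt-40 starts. For ugt-37 there were 17 and 19 counts in control and 18 and 14 counts with GNC. The log2 difference was -0.38 ± 0.35 (standard error, adjusted p = 0.417, edgeR's quasi-likelihood test), so a change was not detected in the direct neighbour of ugt-40. For ugt-38 the counts were 30 and 43 in control and 65 and 61 with GNC. The log2 difference was 0.57 ± 0.25 (standard error, adjusted p = 0.0904, same edgeR test). For ugt-39, which lies between F10D2.10 and str-204, they were 431 and 399 in control and 585 and 476 with GNC. The log2 difference was 0.13 ± 0.11 (standard error, adjusted p = 0.343, same edgeR test). None of the 5 other UGT genes was called by edgeR, DESeq2 or limma at the 2-fold threshold, which follows from the choice of members. At an unadjusted p under 0.05 in edgeR, 3 of the 5 passed, and nothing is read from this count without the share of all tested genes.

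The other genes around the clusters were read from the same fit. Of 46 genes not named ugt in the table within 20 kb of a cluster (ugt-67 included), 14 were tested. Of these 1 was called higher and 1 lower, where 4.97% and 2.23% of all tested genes were. At an FDR under 0.05 without a fold threshold 2 were higher and 6 lower, where 19.8% and 20.5% of all tested genes were. These 8 genes by edgeR compare with 6 of the 14 by DESeq2 and 3 by limma at the same FDR. Their median log2 fold change was -0.26, beside 0.02 over all genes tested.

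The gene called higher was str-112, a member of the str family of seven-transmembrane receptors, many of which are chemoreceptors. It lies beside ugt-40 on the same minus strand (WBGene00006163, 7136277 to 7138417), 1065 bases past the end at which transcription of ugt-40 stops. Its counts were 41 and 35 in control and 247 and 238 with GNC. The normalized count was 2.04 ± 0.303 CPM under water and 11.2 ± 0.328 CPM under GNC (SD, n = 2 each). It rose by 2.45 ± 0.17 on the log2 scale (standard error, adjusted p = 2.14e-05, edgeR's quasi-likelihood test). Its level was 1.81 FPKM in control worms and 10.6 FPKM with GNC, above that of ugt-40 in both groups. On its other side F10D2.3, 594 bases away, had 16 and 17 counts in control and 21 counts in both GNC libraries (log2 fold change 0.13, adjusted p = 0.785, same edgeR test).

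The gene called lower was fat-7 (WBGene00001399, 7151356 to 7153146), a stearoyl-CoA desaturase that makes oleic acid and lies within the second cluster between ugt-38 and ugt-41. Its counts were 37 and 40 in control and 9 and 10 with GNC. On the log2 scale the difference was -2.22 ± 0.33 (standard error, adjusted p = 0.000739, edgeR's quasi-likelihood test). The gene next to it, F10D2.10, had a log2 fold change of -0.53 (adjusted p = 0.0239, same edgeR test). A gene that was lower with GNC, fat-7, thus lies between members that were higher. The gene str-204, which lies on the opposite strand and ends 51 bases from the 3′ end of ugt-41, had 14 and 15 counts in control and 13 and 8 counts with GNC. The gene pitr-5 (named after its values were seen), a predicted phosphate transporter by name, lay just under the fold threshold at 0.996 ± 0.11 on the log2 scale (standard error, adjusted p = 0.000138, same edgeR test).

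**Figure D4:**
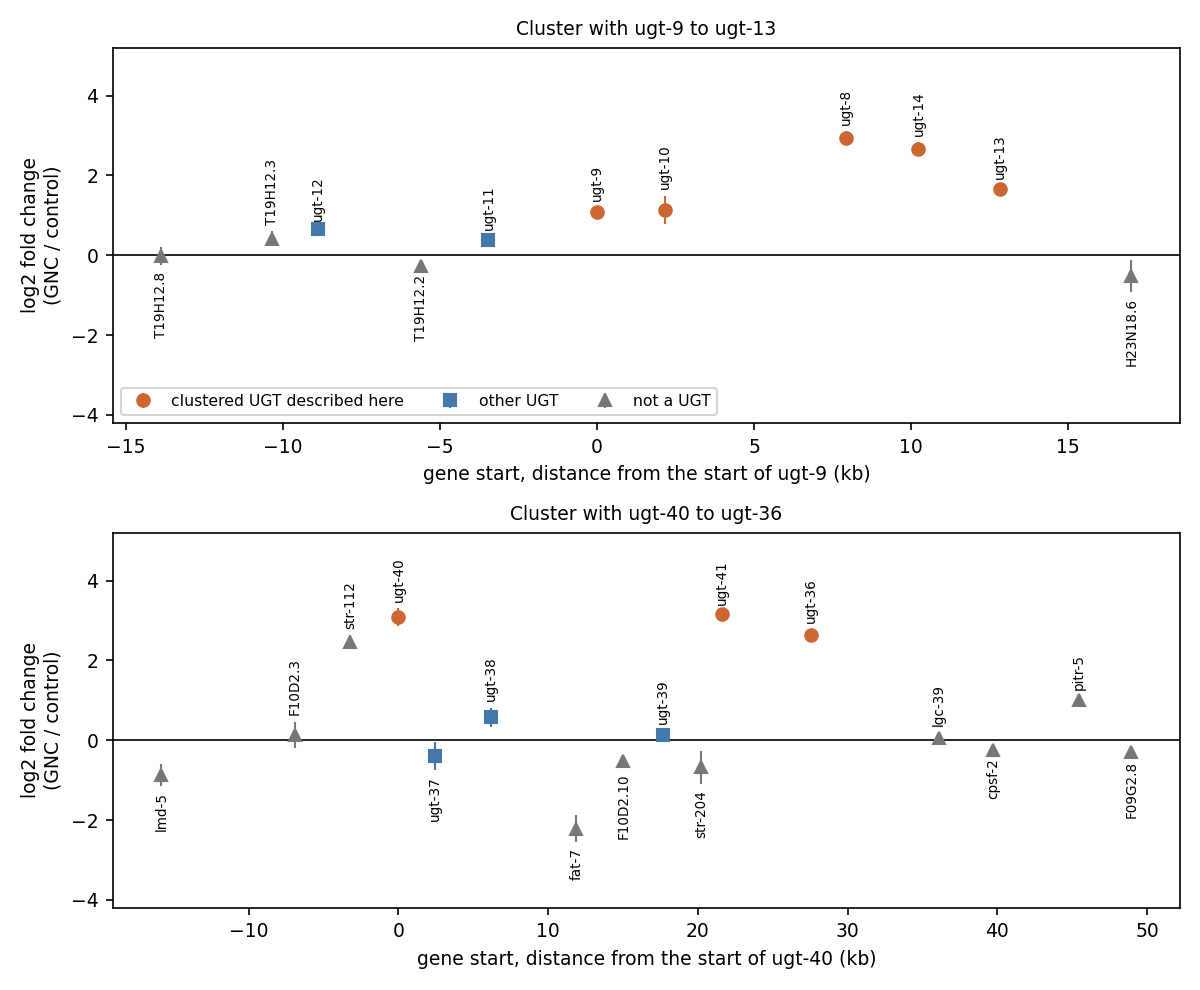
Log2 fold change (GNC over control, bars are standard errors) of every tested gene within 20 kb of each cluster, by the distance of its start from the start of the cluster's first member in kb. Orange circles are the members, blue squares other UGT genes and grey triangles genes of other families. In the second cluster str-112 at 2.45 stands beside ugt-40, while ugt-37 at -0.38, ugt-38 at 0.57, fat-7 at -2.22 and ugt-39 at 0.13 lie between the members.

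Among the 53 other UGT genes tested, inside and outside the clusters, 5 were called higher and none lower, where 4.97% and 2.23% of all tested genes were. DESeq2 and limma each called 5 of the 53. At an FDR under 0.05 with no fold threshold 19 were higher and 2 lower, where 19.8% and 20.5% of all tested genes were. By edgeR at an unadjusted p under 0.05, 23 of the 53 passed. The share of all tested genes at that unadjusted cutoff is not given here, so nothing is read from this count. The median log2 fold change of the 53 was 0.17. Called were ugt-63 (2.20), ugt-43 (1.51), ugt-25 (1.24), ugt-3 (1.21) and ugt-32 (1.08), with log2 fold changes in parentheses. With no filter on low counts ugt-43 and ugt-32 were lost (adjusted p = 0.0559 and 0.0506, edgeR), and without control replicate 1 the log2 fold change of ugt-32 was 0.85, under the 2-fold threshold. Of these genes ugt-63, ugt-3 and ugt-32 lie on chromosome V as well, outside both clusters, with starts at 5108015, 12798318 and 3841859. The gene with the largest change among them, ugt-63, had 30 and 23 counts in control and 149 and 136 counts with GNC.

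Genes that act before, with and after UGTs in detoxification were counted from the same fit. Of 6 enzymes and carriers that make, convert or move UDP-sugars, 4 were lower at an FDR under 0.05, where 20.5% of all tested genes were. They were sqv-4, the UDP-glucose dehydrogenase that makes UDP-glucuronic acid (log2 fold change -0.58, adjusted p = 0.000298, edgeR's quasi-likelihood test), D1005.2 (-0.50), sqv-7, a UDP-sugar transporter (-0.26), and sqv-1, the UDP-glucuronic acid decarboxylase (-0.19). The gene gale-1 (-0.15) did not pass. Nor did K08E3.5 (0.04), the most abundant of the 6, at 192 CPM in control and 198 CPM with GNC. By DESeq2, as by limma, only 1 of the 6 passed, and of the 4 genes only sqv-4 passed under every alternative. The genes D1005.2, sqv-7 and sqv-1 were lost with library totals (adjusted p = 0.0535, 0.142 and 0.261, edgeR) and without GNC replicate 2 (0.146, 0.122 and 0.0704, edgeR), among others.

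The counts in these lists stand beside 19.8% higher and 20.5% lower at an FDR under 0.05, and 4.97% called higher and 2.23% called lower, over all tested genes. Among 94 tested genes of the first step (cyp and dhs), 26 were higher and 11 lower at an FDR under 0.05, and 10 were called higher and 1 lower. The largest were cyp-35A1, with 2 and 0 counts in control and 31 and 23 counts with GNC, cyp-35A5 (log2 fold change 2.79), cyp-35C1 (1.82), dhs-5 (1.47) and cyp-33D1 (1.32). Among 92 tested genes of the second step other than the members (gst and ugt), 25 were higher and 12 lower, and 8 were called higher and 4 lower. Of these 92, 53 are the other UGT genes counted above, with 19 higher and 2 lower, 5 called higher and none called lower. The 4 called lower were therefore gst genes, and the pooled counts and median describe neither family alone. The largest, beside ugt-63 and ugt-43, were gst-20 (-1.87), gst-21 (1.60) and gst-12 (-1.57), which encode glutathione transferases by name. The call of gst-21, with 7 to 31 counts per library, was lost with DESeq2 (adjusted p = 0.0665) and without GNC replicate 1 (adjusted p = 0.0642, edgeR). Among 29 tested genes of the export step (pgp, mrp and haf, membrane pumps), 11 were higher and 3 lower at an FDR under 0.05. The median log2 fold change was 0.12 in the first list, 0.11 in the second and 0.21 in the third, beside 0.02 over all genes tested.

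Of 18 regulators of detoxification and stress, 3 were higher at an FDR under 0.05, where 19.8% of all tested genes were. The largest was nhr-8, a nuclear receptor linked to the resistance of worms to toxins, with 307 and 280 counts in control and 633 and 532 counts with GNC. On the log2 scale it rose by 0.77 ± 0.11 (standard error, adjusted p = 0.000467, edgeR's quasi-likelihood test). The others were elt-2, the GATA factor of the intestine (0.25), and pqm-1 (0.19), neither of which passed with DESeq2 (adjusted p = 0.0765 and 0.0777), without control replicate 1 (0.111 and 0.0791, edgeR) or without GNC replicate 1 (0.0768 and 0.125, edgeR). The transcripts of daf-16, skn-1 and hif-1 had log2 fold changes of -0.06, -0.20 and 0.12 that did not pass. These are transcript levels, and the activity of the factors was not measured.

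Of the 10 tested markers of the intestine, the main organ of detoxification in the worm, 2 were higher and 4 lower at an FDR under 0.05. The counts of markers in this and the following lists stand beside 19.8% higher and 20.5% lower over all tested genes. The intestinal markers summed to 871 and 971 CPM in control and to 752 to 791 CPM with GNC. The largest, asp-1, was at 358 and 435 CPM in control and at 268 and 245 CPM with GNC. The fall in the sum lies mainly in this gene. The 2 higher markers were act-5 (log2 fold change 0.32) and elt-2 (0.25). Markers of the germline summed to 1727 to 1740 CPM in control and 1348 to 1385 CPM with GNC, with 4 of 7 lower. Markers of sperm summed to 201 to 202 CPM in control and 247 to 262 CPM with GNC, with 2 of 5 higher. Body wall muscle gave 1237 to 1436 CPM against 1387 to 1412 CPM, with 2 of 6 markers higher and 1 lower. Neurons gave 484 to 572 CPM against 547 CPM in both GNC libraries, and epidermis gave 200 to 212 CPM against 188 to 196 CPM, with 1 of 4 higher and 2 lower. Of the 3 collagens in the epidermal list, the adult collagen col-19 was at 1423 to 2100 counts, and dpy-7 and dpy-13 were at 4 to 10 counts, below the filter. Of the intestinal markers mtl-2 was below the filter too, at 0 to 10 counts. The part of these shifts in the members' values was not tested.

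The genes most like the 8 members over the 4 libraries were found by the distance between log2 CPM profiles, each centred on its mean, among 9301 genes with a mean of at least 10 CPM. The nearest to the mean profile of the members were ilys-2, an invertebrate lysozyme (distance 0.30), W03G1.5 (0.33), far-3, a fatty acid and retinol binding protein (0.36), C28C12.4 (0.47) and C32D5.12 (0.51). In far-3 the counts were 606 and 685 in control and 2939 and 2655 with GNC. With 2 groups of 2 libraries this likeness is mostly a likeness in fold change, and it is given as a description.

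**Figure D5:**
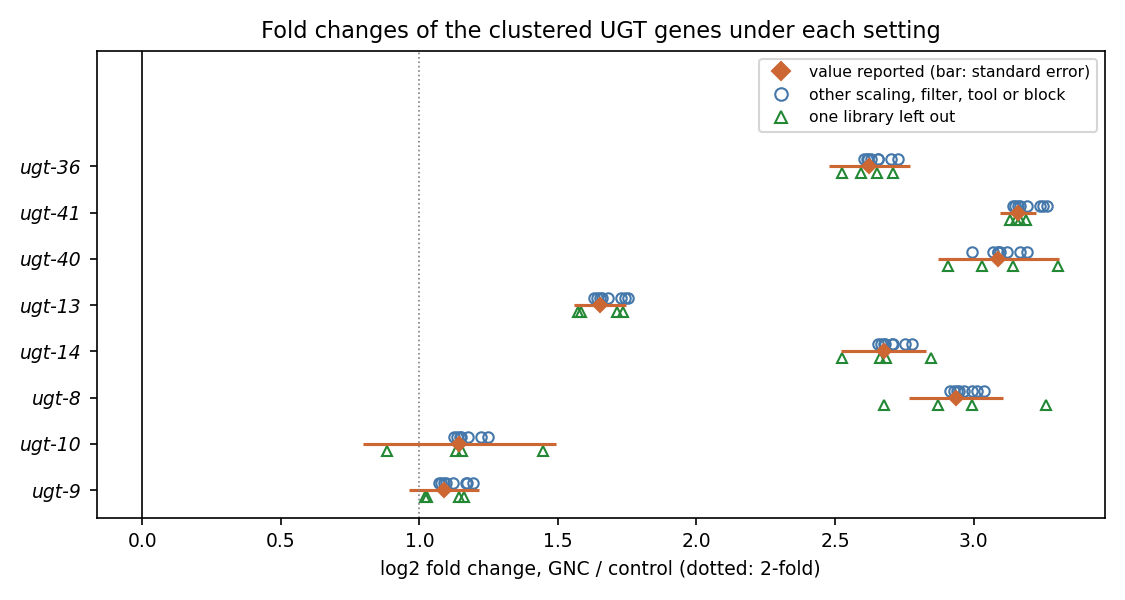
Log2 fold change (GNC over control) of each member as reported (orange diamonds, bars are standard errors), under other scalings, filters, tools or a replicate block (blue circles) and with 1 library left out (green triangles). The dotted line marks 2-fold. Only ugt-10 crosses it, at 0.88 without control replicate 2, and ugt-41 spans 3.13 to 3.26.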

How the data were processed

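RNA-seq of N2 worms under GNC was compared with that under water (2 libraries each). The deposited values are fragment counts of each gene, not normalized, beside FPKM values that the authors scaled to gene length and library total. The submitters' processing notes list CASAVA 1.8, TopHat2 2.1.0, Cuffdiff and the build WBcel235. The counter, its use of strand and its treatment of shared reads are not given in the sources used here.

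The counts were scaled by TMM, filtered with filterByExpr and tested with the quasi-likelihood F-test of edgeR 4.0.16 in R 4.3.3 across all 16341 genes, with Benjamini-Hochberg adjustment. Replicates were compared to find a library deposited more than once. They differed beyond sampling noise (chi-square per degree of freedom 6.89 in control, 7.23 in GNC), so neither was a copy of the other. This does not show that they came from separate cultures, and each library was treated as a sample of its own. The procedure was tested on simulated data. Alternatives were DESeq2 1.42.0, limma 3.58.1 on log2(FPKM + 0.1), other scalings, filters and flanks of 10 and 50 kb, no fold threshold, a replicate block and each library left out.

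The members, the gene lists and the tests were chosen with earlier results of these data known. Named beside the members were the other UGT genes and called genes within 20 kb, called genes of each list (up to 5) and the 5 nearest profiles. Strand, exons and coding length came from the Ensembl annotation of WBcel235, in which 45040 gene identifiers matched. Promoter motifs and protein identity were set as descriptions, but no sequence was used here.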

Additional observations from a re-analysis of the deposited data

How the results depend on the processing

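The median log2 fold change of the 8 members, 2.65, lay between 2.59 and 2.75 under every alternative that was run. No member changed direction, and limma on FPKM left out ugt-10, which was below 1 FPKM in all libraries. With no filter on low counts, 185 genes were called lower in place of 364, and 3 other UGT genes were called higher in place of 5, which comes with 29615 tested genes in place of 16341. With no fold threshold, 3238 genes were higher and 3356 lower, 19 other UGT genes were higher, and 8 genes of other families around the clusters passed, which follows from the threshold. Of the calls named, gst-21 was lost with DESeq2 (adjusted p = 0.0665) and without GNC replicate 1 (adjusted p = 0.0642, edgeR), ugt-43 and ugt-32 with no filter (adjusted p = 0.0559 and 0.0506, edgeR), and ugt-32 without control replicate 1 (log2 fold change 0.85). The member ugt-10 fell under 2-fold without control replicate 2 (0.88). Calls at the FDR threshold alone were less stable: with no filter, adjusted p rose to between 0.0893 and 0.131 (edgeR) for ugt-11, pqm-1, elt-2, sqv-7, sqv-1 and D1005.2. The gene pitr-5 crossed the 2-fold threshold under 7 of its 12 alternatives, with values from 0.89 to 1.10 over all of them.

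Both groups use the replicate numbers 1 and 2, yet same-numbered libraries showed no common deviation (r = 0.04 over 16341 genes, themselves no independent replicates). A replicate block gave 828 genes higher and 365 lower, 5 other UGT genes and 2 neighbouring genes were called, and the members' median was 2.65. With 10 to 62 control counts per library, the fold changes of ugt-10, ugt-40, ugt-8, ugt-14 and ugt-36 are the least precise.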
